A study of Mus musculus with 12 samples.

Results

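Integrins are cell surface receptors made of 1 alpha and 1 beta chain. The alpha chain largely sets which ligand is bound, and the beta tail ties the receptor to talin, kindlin and the actin cytoskeleton. In the heart they attach fibroblasts to fibronectin and collagen, carry force and release active TGF-beta from its latent complex, and on leukocytes they serve adhesion and phagocytosis. CCN2, the connective tissue growth factor of older texts, is a matricellular protein without a dedicated receptor. It is known to bind several integrins, among them alphav-beta3, alpha5-beta1, alpha6-beta1 and alphaM-beta2. The 10 genes described here are Itgav, Itgb1, Itgb3, Itgb5, Itga5, Itga7, Itga8, Itga11, Itgam and Itgb2. They were taken by symbol from the platform's probe annotation, which names 20 of the 45281 probes for them. Of these, 16 probes from all 10 genes were detected on enough arrays to be tested, among 20445 tested probes in all.

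RNA of primary cardiac fibroblasts was measured on 12 Illumina bead arrays. The cells came from female C57/BL6 mice aged 10 to 16 weeks, and were grown in wells without a coating, in medium with gentamycin and 10% fetal calf serum. There were 4 arrays of cells given 500 nmol/L GDF15 for 48 h, 4 arrays of cells given 200 nmol/L CCN2 for 48 h and 4 arrays of untreated control cells. GDF15 is a stress-induced cytokine related to TGF-beta. No label ties an array to a culture or an animal of its own, so p-values here cover only the spread between arrays, and that may be technical. Arrays are named by the number in their titles, with 1 to 4 for control, 5 to 8 for CCN2 and 9 to 12 for GDF15.

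Levels are log2 intensities after background correction and quantile normalization, and a difference is the treated mean minus the control mean on that scale. A probe counts as detected on an array where the deposited detection p-value is under 0.05. It counts as changed where the limma fit over all 12 arrays gave an adjusted p under 0.05 over all tested probes. Probes bind with different strength, so levels are compared between arrays and never between genes. Detected probes per array numbered 19004 to 19481 for GDF15, 18009 to 18979 for CCN2 and 19211 to 19691 for control, and arrays of a group correlated at 0.987 to 0.996. A summed level adds the normalized intensities, not logged, of a list's tested genes, so bright probes weigh most in it. All 10 fibroblast markers examined were detected, with a summed level of 38700 to 41200 with GDF15, 33100 to 34800 with CCN2 and 43000 to 44800 in control. None rose in either treatment, and 5 fell after CCN2 and 4 after GDF15. Of all tested genes, 25.7% rose and 30.2% fell after CCN2, and 9.76% rose and 12.7% fell after GDF15. The cultures also held macrophage transcripts, whose levels stand beside the leukocyte integrins.

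After CCN2, the transcripts of the fibronectin and vitronectin receptor chains Itgav and Itga5 were 4.32-fold and 2.42-fold higher than in control, each by its brightest probe. Those of the collagen receptor chain Itga11 and of the alphav partner Itgb5 were 9.68-fold and 2.69-fold lower. After GDF15, the brightest probes of these 4 genes moved by at most 0.46 on the log2 scale, and the largest change was a rise of 1.74-fold in Itgam, the leukocyte chain alphaM. Of the 16 probes, 4 rose and 7 fell after CCN2, and 4 rose and 1 fell after GDF15. With every array scaled to one median in place of quantile normalization, 1 rose and 2 fell after GDF15, and without control array 1, 2 rose and 0 fell. Over all tested probes, with quantile normalization, 51.3% changed after CCN2 and 20.0% after GDF15. The number of changed integrin probes therefore has to be read against a broad response. By the brightest probe of each gene, 2 of 10 genes rose and 4 fell after CCN2, beside 25.7% and 30.2% of 11018 genes. After GDF15, 3 rose and 1 fell, beside 9.76% and 12.7%. The near balance of rises and falls over all features rests on quantile normalization. Of all called probes, 48.6% were higher after CCN2 and 46.7% after GDF15, against 26.7% and 34.5% with median scaling. The median log2 difference of the 10 genes was -0.049 after CCN2 and 0.072 after GDF15, against -0.023 and -0.018 over all genes.

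**Figure D1:**
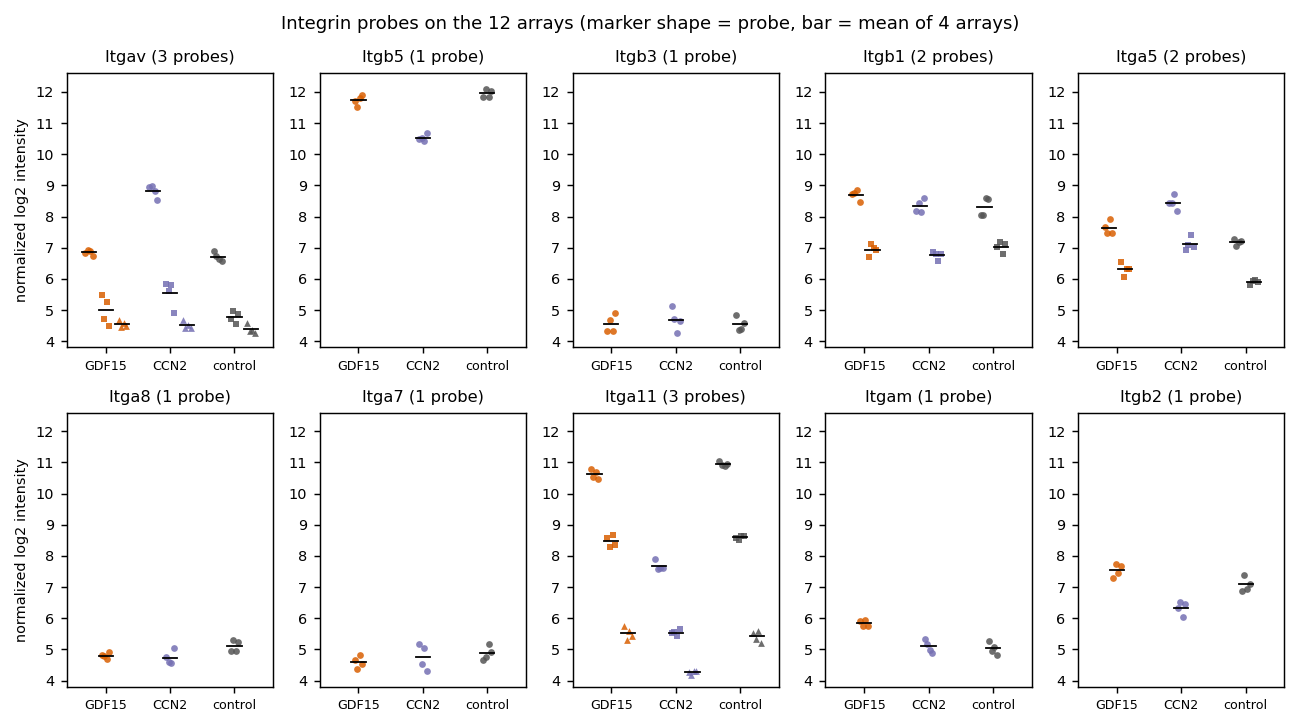
Normalized log2 intensity of each tested probe of the 10 integrin genes on the GDF15, CCN2 and control arrays, 4 arrays a group. Each point is an array, each marker shape a probe and each bar the mean of 4 arrays. The CCN2 arrays stand above the others for the brightest Itgav probe and for Itga5 and below them for Itgb5 and Itga11, and the GDF15 arrays stand above the others for Itgam.

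The promoters of the genes that moved most are shown to set these changes beside their sequence. RefSeq's promoter table for GRCm38.p6 held 7 of the 10 genes. The 250 bases before the annotated start are given 5′ to 3′ on the gene's strand for Itgav (chr2:83724147-83724396, plus strand), Itga5 (chr15:103366792-103367041, minus strand), Itga11 (chr9:62677605-62677854, plus strand), Itgb5 (chr16:33829415-33829664, plus strand) and Itgam (chr7:128062390-128062639, plus strand). Capitals mark GGGCGG, the GC box bound by SP factors, CAGACA, a SMAD element, and GAGGAA, the core of PU.1 sites, each on either strand.
Itgav: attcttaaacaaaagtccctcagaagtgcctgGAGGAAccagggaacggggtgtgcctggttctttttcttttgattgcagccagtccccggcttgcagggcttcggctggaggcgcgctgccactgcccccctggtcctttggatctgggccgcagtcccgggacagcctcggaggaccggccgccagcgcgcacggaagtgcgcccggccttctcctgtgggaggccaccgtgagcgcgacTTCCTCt
Itga5: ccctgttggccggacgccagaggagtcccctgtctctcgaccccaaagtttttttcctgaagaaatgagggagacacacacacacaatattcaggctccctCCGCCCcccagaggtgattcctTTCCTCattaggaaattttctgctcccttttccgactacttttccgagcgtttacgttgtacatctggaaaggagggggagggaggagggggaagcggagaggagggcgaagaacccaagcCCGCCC
Itga11: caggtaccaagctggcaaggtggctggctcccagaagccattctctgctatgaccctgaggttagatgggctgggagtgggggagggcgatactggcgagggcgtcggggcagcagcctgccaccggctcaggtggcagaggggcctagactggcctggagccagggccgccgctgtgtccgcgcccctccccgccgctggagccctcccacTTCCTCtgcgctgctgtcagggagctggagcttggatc
Itgb5: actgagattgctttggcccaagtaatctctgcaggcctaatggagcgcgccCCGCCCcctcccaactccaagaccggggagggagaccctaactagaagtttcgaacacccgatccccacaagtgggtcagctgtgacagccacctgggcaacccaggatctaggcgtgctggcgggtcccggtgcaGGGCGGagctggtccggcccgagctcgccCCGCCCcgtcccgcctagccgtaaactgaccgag
Itgam: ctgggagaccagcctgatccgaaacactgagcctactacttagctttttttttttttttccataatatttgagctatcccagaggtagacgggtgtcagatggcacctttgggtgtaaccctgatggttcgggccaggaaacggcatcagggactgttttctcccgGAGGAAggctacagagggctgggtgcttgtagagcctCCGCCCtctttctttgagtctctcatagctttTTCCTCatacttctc

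The GC content of these stretches was 64.4% for Itgav, 55.6% for Itga5, 68.4% for Itga11, 65.2% for Itgb5 and 49.6% for Itgam, against a median of 52.4% over all 32851 promoters. The GC box GGGCGG stood 3 times in Itgb5, 2 times in Itga5, once each in Itgam and Itgb1 and in none of Itgav, Itga11 and Itga8. It was thus in 4 of the 7, beside 32.7% of all promoters with at least 1 match. The element CAGACA matched 1 of the 7 integrin promoters, that of Itgb1, beside 17.1% of all. GAGGAA stood 2 times each in Itgav and Itgam and once each in Itga5, Itga11 and Itgb1, so in 5 of the 7, beside 23.3% of all promoters. TGANTCA, the AP-1 element, was in none of the 7, beside 6.75% of all. A match describes these letters only and is not a binding site.

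Itgav encodes the alpha chain shared by the RGD-binding receptors alphav-beta1, alphav-beta3 and alphav-beta5. Its brightest probe, ILMN_1238119, read 6.83, 6.93, 6.89 and 6.75 on the GDF15 arrays, 8.96, 8.97, 8.83 and 8.54 on the CCN2 arrays and 6.91, 6.74, 6.64 and 6.57 on the control arrays. All CCN2 arrays lay above all others, and the GDF15 and control arrays overlapped. Before normalization, the intensity was 122 to 152 with GDF15, 351 to 490 with CCN2 and 130 to 145 in control. The log2 difference was 2.11 (SE 0.11, limma adjusted p = 2.36e-11) after CCN2 and 0.14 (SE 0.11, adjusted p = 0.426) after GDF15, with a 95% interval of -0.10 to 0.37 for GDF15. In these cultures of mixed cells, a change in the number of cells of a type and a change in RNA per cell cannot be told apart.

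The other Itgav probes are tied to other cDNA records and were dimmer. ILMN_1236648 read 5.49, 4.71, 5.27 and 4.48 on the GDF15 arrays, 5.84, 5.61, 5.80 and 4.89 on the CCN2 arrays and 4.70, 4.96, 4.56 and 4.86 on the control arrays. It rose after CCN2 by 0.77 (SE 0.21, adjusted p = 0.00628), although CCN2 array 8 lay within the control range. The difference was 0.38 with the authors' processed values or without background correction and 0.40 with an offset of 50. The SD of its log2 level was 0.47 on the GDF15 arrays and 0.44 on the CCN2 arrays, against 0.18 in control. ILMN_1251946, detected on 2 of 4 GDF15, 1 of 4 CCN2 and 1 of 4 control arrays, differed from control by 0.13 (SE 0.095, adjusted p = 0.291) after CCN2. ILMN_1234725 and ILMN_1254152 were detected on no array and were not tested. The 2 Itgav probes that were detected on all CCN2 arrays thus rose, by differing amounts.

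Itgb5 encodes the beta chain that forms the vitronectin receptor alphav-beta5, and alphav is its only known partner. Its probe ILMN_2663613 read 11.72, 11.51, 11.81 and 11.90 with GDF15, 10.49, 10.52, 10.42 and 10.67 with CCN2 and 11.84, 12.09, 11.85 and 12.04 in control. The CCN2 arrays lay below all others and did not overlap them. It fell after CCN2, with a log2 difference of -1.43 (SE 0.099, limma adjusted p = 1.9e-09), and was at -0.22 (SE 0.099, adjusted p = 0.141) after GDF15. The level of this beta chain and that of its partner Itgav therefore changed in opposite directions on the CCN2 arrays.

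Itgb3, the beta chain of alphav-beta3 and of the platelet receptor, was close to the detection limit. Its probe was detected on 2 of 4 GDF15, 3 of 4 CCN2 and 2 of 4 control arrays and read 4.27 to 5.13 over all 12. The difference was 0.15 (SE 0.17, adjusted p = 0.497) after CCN2, with a 95% interval of -0.23 to 0.52, and 0.01 (SE 0.17, adjusted p = 0.984) after GDF15, with one of -0.37 to 0.39. No change was shown. At this brightness the processing shrinks differences, so these intervals do not bound a change in RNA.

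Itgb1 encodes the beta chain shared by the fibronectin, laminin and collagen receptors. It was detected on all 12 arrays by both of its probes. ILMN_2609304 read 8.72, 8.75, 8.84 and 8.48 with GDF15, 8.18, 8.43, 8.14 and 8.60 with CCN2 and 8.05, 8.06, 8.59 and 8.56 in control. The groups overlapped, and the control arrays fell into a lower and a higher pair. The difference from control was 0.02 (SE 0.14, adjusted p = 0.919) after CCN2 and 0.38 (SE 0.14, adjusted p = 0.0679) after GDF15. The GDF15 difference passed the threshold with array weights (adjusted p = 0.0375), with the authors' processed values or without background correction (adjusted p = 0.0449 in both), and without GDF15 array 12, control array 3 or control array 4 (adjusted p between 0.0317 and 0.0413). The second probe, ILMN_2789077, was at -0.27 (SE 0.11, adjusted p = 0.0458) after CCN2, a call that ended without any one of the CCN2 arrays 6 to 8 or of the control arrays 1, 2 and 4 (adjusted p between 0.0607 and 0.146) and without GDF15 array 11 (adjusted p = 0.0518), and that the first probe did not share. The call also ended without the detection filter (adjusted p = 0.0898), and the difference was -0.56 (adjusted p = 0.000879) with median scaling. It was at -0.11 (SE 0.11, adjusted p = 0.561) after GDF15. The 95% intervals for CCN2 were -0.30 to 0.34 and -0.52 to -0.03, so the common beta chain stayed within 1 log2 unit of control while its alpha partners Itga5 and Itga11 moved by over 1.

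Itga5 encodes the alpha chain of the main fibronectin receptor, alpha5-beta1. Its probe ILMN_2849449 read 7.67, 7.47, 7.93 and 7.47 with GDF15, 8.42, 8.45, 8.72 and 8.19 with CCN2 and 7.27, 7.05, 7.17 and 7.21 in control. No group overlapped another, with CCN2 highest and control lowest. The log2 difference was 1.27 (SE 0.12, limma adjusted p = 9.56e-08) after CCN2 and 0.46 (SE 0.12, adjusted p = 0.0109) after GDF15. The second probe, ILMN_2670172, gave 1.22 (SE 0.11, adjusted p = 9.56e-08) and 0.42 (SE 0.11, adjusted p = 0.0153), again with no overlap between groups. The probes differed from each other by less than their SE in both comparisons. With median scaling, the calls after GDF15 ended, at 0.37 (adjusted p = 0.051) and 0.33 (adjusted p = 0.0692). The second probe's rise after GDF15 was 0.27 (adjusted p = 0.0219) with the authors' processed values or without background correction. Its call also ended without GDF15 array 9 (adjusted p = 0.0534) or control array 1 (adjusted p = 0.0528). That scaling shifted the median of all tested probes to -0.17 after CCN2, -0.052 after GDF15 and 0.12 for GDF15 minus CCN2.

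Itga11 encodes the alpha chain of alpha11-beta1, a receptor for fibrillar collagen found on fibroblasts. Its brightest probe, ILMN_2701778, read 10.80, 10.53, 10.69 and 10.46 with GDF15, 7.90, 7.59, 7.61 and 7.61 with CCN2 and 11.06, 10.91, 10.88 and 10.96 in control. The CCN2 arrays lay far below the rest, and all GDF15 arrays lay below all control arrays by a small step. Before normalization, its intensity was 1667 ± 58.5 with GDF15, 203 ± 26.5 with CCN2 and 2055 ± 33.8 in control (SD, n = 4 each). The log2 difference was -3.28 (SE 0.097, limma adjusted p = 2.84e-14) after CCN2 and -0.34 (SE 0.097, adjusted p = 0.0217) after GDF15. The small GDF15 call ended without GDF15 array 10 or 12 (adjusted p = 0.0628 and 0.057) or control array 1 (adjusted p = 0.0721). The probe ILMN_2844032 fell after CCN2 too, at -3.06 (SE 0.095, adjusted p = 5.43e-14), and was at -0.13 (SE 0.095, adjusted p = 0.41) after GDF15. The dimmest probe, ILMN_2603054, was detected on 4 of 4 GDF15, 0 of 4 CCN2 and 4 of 4 control arrays. It was at least 1.76-fold lower after CCN2 than in control (adjusted p = 8.06e-08), with group means of 4.26 for CCN2 and 5.42 for control. This bound sets the CCN2 side at the lowest detected signal of each array, or at the probe's own value where that is higher.

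Itga8, the alpha chain of the nephronectin receptor, and Itga7, a laminin receptor chain best known from muscle, were both dim. The Itga8 probe ILMN_1227552 read 4.81, 4.80, 4.68 and 4.92 with GDF15, 4.74, 4.61, 4.56 and 5.03 with CCN2 and 4.94, 5.31, 4.94 and 5.24 in control. It fell after CCN2, at -0.37 (SE 0.12, limma adjusted p = 0.0125), with CCN2 array 8 inside the control range, and was at -0.17 with the authors' processed values, without background correction or with an offset of 50 (adjusted p between 0.0285 and 0.0337). After GDF15 it was at -0.30 (SE 0.12, adjusted p = 0.078), although all GDF15 arrays lay below all control arrays, and it passed with median scaling (adjusted p = 0.0408) and without CCN2 array 8 (adjusted p = 0.0455). Itga7, by ILMN_1257880, was detected on 2 of 4 GDF15, 2 of 4 CCN2 and 4 of 4 control arrays. It differed from control by -0.12 (SE 0.17, adjusted p = 0.588) after CCN2 and -0.29 (SE 0.17, adjusted p = 0.269) after GDF15. A second probe of each gene was detected on no array.

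**Figure D2:**
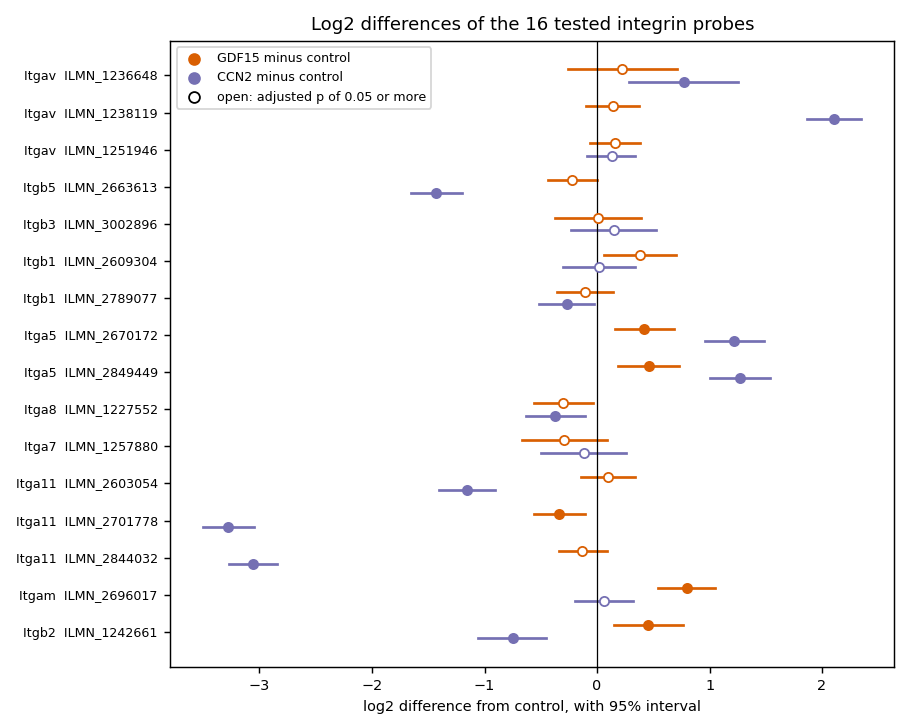
Log2 difference from control of the 16 tested integrin probes after GDF15 and after CCN2, with the 95% interval from the limma fit. Filled points had an adjusted p under 0.05, and the CCN2 point of ILMN_2603054, which no CCN2 array detected, is a fitted value and no measured size. The CCN2 differences run from -3.28 for Itga11 to 2.11 for Itgav, while those of GDF15 lie between -0.34 and 0.80, and the 2 probes of Itga5 give similar differences within each treatment.

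Itgam and Itgb2 encode the chains of alphaM-beta2, the complement receptor of macrophages and neutrophils, for which CCN2 is a known ligand. Beta2 also pairs with the alphaL and alphaX chains. The Itgam probe read 5.91, 5.75, 5.93 and 5.74 with GDF15, 5.33, 5.16, 4.99 and 4.89 with CCN2 and 5.28, 4.96, 5.09 and 4.82 in control. All GDF15 arrays lay above all others, and the CCN2 and control arrays overlapped. It rose after GDF15 by 0.80 (SE 0.11, limma adjusted p = 5.79e-05), and differed from control by 0.06 (SE 0.11, adjusted p = 0.693) after CCN2, with a 95% interval of -0.20 to 0.32. The rise after GDF15 was 0.42 with the authors' processed values or without background correction and 0.44 with an offset of 50 (adjusted p between 8.49e-05 and 8.77e-05).

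The Itgb2 probe read 7.28, 7.74, 7.44 and 7.69 with GDF15, 6.32, 6.53, 6.04 and 6.44 with CCN2 and 6.88, 7.40, 6.95 and 7.11 in control. The CCN2 arrays lay below all others, and the GDF15 and control arrays overlapped. Itgb2 fell after CCN2, at -0.75 (SE 0.14, limma adjusted p = 0.000163), and rose after GDF15, at 0.45 (SE 0.14, adjusted p = 0.0255). The call after GDF15 ended with median scaling (0.36, adjusted p = 0.109), without the detection filter (adjusted p = 0.0819), and without GDF15 array 10 or 12 (adjusted p = 0.0826 and 0.0645) or control array 1 or 3 (adjusted p = 0.0902 and 0.0719).

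Macrophage markers moved on the same arrays. Over all genes, 12.7% fell and 9.76% rose after GDF15, and 30.2% fell and 25.7% rose after CCN2. Of 22 tested macrophage markers, 12 fell and none rose after GDF15, and 19 fell and 1 rose after CCN2, with median log2 differences of -0.33 and -1.47. Their summed level was 46200 to 49600 with GDF15, 21400 to 23500 with CCN2 and 56500 to 59600 in control, with no overlap between groups. The 1 marker detected on no CCN2 array was Cd163, a scavenger receptor, named after its values were seen. The C1q chain C1qc, with the largest fall of the 22 after CCN2, changed by -1.65 (SE 0.098, limma adjusted p = 2.61e-09) after GDF15 and -5.10 (SE 0.098, adjusted p = 1.51e-16) after CCN2. Cd14, also named after its values were seen, was the 1 that rose after CCN2, by 0.98 (SE 0.077, adjusted p = 8.76e-09). It was at -0.12 (SE 0.077, adjusted p = 0.313) after GDF15. Adgre1, named likewise, passed in neither treatment, at 0.28 (adjusted p = 0.0726) after GDF15 and 0.24 (adjusted p = 0.0583) after CCN2. On the GDF15 arrays the leukocyte chains Itgam and Itgb2 were thus higher, while 12 of the 22 markers were lower and 10 did not pass. On the CCN2 arrays Itgb2 and 19 of the 22 markers were lower, and Itgam did not pass the test. The 4 tested neutrophil markers had a summed level of 559 to 724 with GDF15, 2450 to 2790 with CCN2 and 125 to 148 in control. Of these 4, 2 rose after GDF15 and 3 after CCN2, while the neutrophil markers S100a9, Cxcr2, Ngp and Retnlg were detected on no array. Mpo, 1 of the 3, was detected on 4 of 4 CCN2, 1 of 4 GDF15 and 0 of 4 control arrays. It was tested only through the CCN2 arrays where it was high, so its place in that count carries little weight. Its level was at least 1.73-fold higher with CCN2 than in control. The part of these cell types in the integrin changes was not tested.

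**Figure D3:**
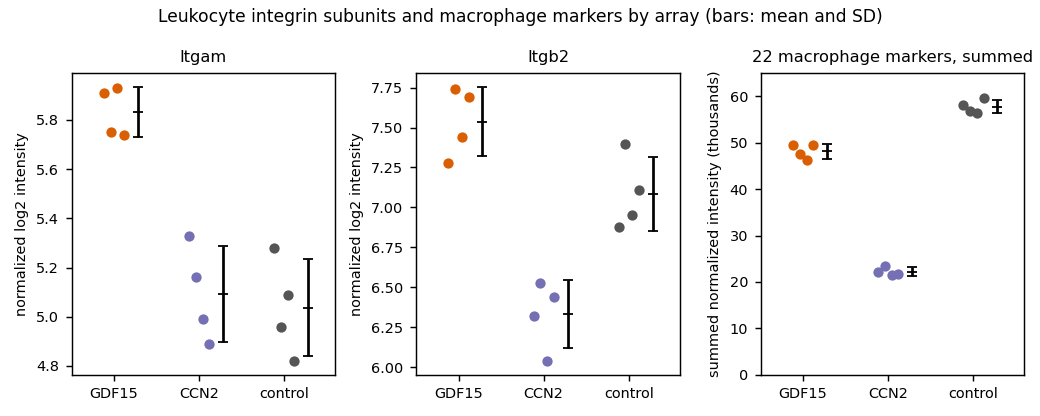
Normalized log2 intensity of Itgam and Itgb2 and the summed normalized intensity of 22 macrophage markers on each GDF15, CCN2 and control array, with the mean and SD of 4 arrays. The means of Itgam and Itgb2 are highest with GDF15, while the marker sum is highest on the control arrays, at 56500 to 59600.

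GDF15 was also set against CCN2 directly. The doses differ, at 500 and 200 nmol/L, so the comparison is of these 2 preparations and not of equal amounts. Of the 16 probes, 7 were higher and 3 lower with GDF15 than with CCN2, where 41.7% of all tested probes differed. The differences were 2.94 (SE 0.097) for Itga11 by its brightest probe, 1.21 (SE 0.099) for Itgb5, 1.21 (SE 0.14) for Itgb2 and 0.74 (SE 0.11) for Itgam, and -1.98 (SE 0.11) for Itgav and -0.81 (SE 0.12) for Itga5. For these 6 genes the limma adjusted p lay between 2.62e-13 and 4.67e-05. Itgb1 was 0.36 (SE 0.14, adjusted p = 0.049) higher by ILMN_2609304, a call that ended without any one of the CCN2 arrays 5 to 7 or of the GDF15 arrays 9 to 11 (adjusted p between 0.0597 and 0.142) or without the detection filter (adjusted p = 0.139), and 0.17 (SE 0.11, adjusted p = 0.244) by ILMN_2789077. With median scaling these differences were 0.58 (adjusted p = 0.00174) and 0.36 (adjusted p = 0.0282). For Itgb2 the effects of the 2 treatments against the shared controls had opposite signs.

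Lists of related genes are read against all genes with quantile normalization. Of these, 25.7% rose and 30.2% fell after CCN2 and 9.76% rose and 12.7% fell after GDF15. With median scaling, 26.7% of all called probes were higher after CCN2 and 34.5% after GDF15, so list counts with that scaling have no like share beside them. Of the 16 other integrin subunits listed, 10 were tested. After CCN2, 1 rose and 5 fell, and after GDF15, 1 rose and none fell, so the number called was near the share over all genes after CCN2 and below it after GDF15. With median scaling these counts were 1 and 7 after CCN2 and 1 and 2 after GDF15. Itga1, the chain of the collagen receptor alpha1-beta1, fell after CCN2 at -1.60 (SE 0.084, limma adjusted p = 5.02e-11) and was at 0.16 (SE 0.084, adjusted p = 0.225) after GDF15. Itga6, a laminin receptor chain that also serves CCN2 binding, fell after CCN2 at -1.01 (SE 0.14, adjusted p = 1.51e-05). It was at -0.40 (SE 0.14, adjusted p = 0.0594) after GDF15, and at -0.50 (adjusted p = 0.0158) with median scaling, and it also passed without GDF15 array 9 or control array 1 or 2 (adjusted p between 0.0242 and 0.0424). Itgb4, the laminin receptor chain of hemidesmosomes, and Itga9, a tenascin receptor chain, fell after CCN2 at -0.68 (SE 0.12, adjusted p = 0.000121) and -0.33 (SE 0.087, adjusted p = 0.00433).

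The other leukocyte alpha chains moved apart from each other. Itgal, the alpha chain of LFA-1, averaged 5.29 ± 0.11 with CCN2 and 4.54 ± 0.18 in control (SD, n = 4 each), detected on 4 of 4 CCN2 and 1 of 4 control arrays. Its difference was 0.75 (SE 0.10, limma adjusted p = 7.29e-06) after CCN2 and 0.06 (SE 0.10, adjusted p = 0.731) after GDF15. Itgax, the alphaX chain of dendritic cells and macrophages, averaged 5.38 ± 0.34 with GDF15 and 4.82 ± 0.077 in control, and rose by 0.56 (SE 0.13, adjusted p = 0.00459). It was detected on no CCN2 array and was at least 1.17-fold lower there than in control (adjusted p = 0.007, and 0.0518 with an offset of 50). Among partners of beta2, Itgam and Itgax thus rose after GDF15, and Itgal rose after CCN2.

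Of 27 tested matrix and soluble ligands, 4 rose and 16 fell after CCN2, with a median log2 difference of -0.40, and 6 rose and 4 fell after GDF15, with a median of 0.042. Over all genes, 30.2% fell after CCN2 and 9.76% rose after GDF15, and the medians were -0.023 and -0.018. The thrombospondin gene Thbs2 fell after CCN2 at -2.72 (SE 0.091, limma adjusted p = 1.31e-13), and the CCN family genes Ccn5 and Ccn2 at -3.66 (SE 0.087, adjusted p = 1.8e-15) and -2.07 (SE 0.085, adjusted p = 1.74e-12). Tgfb3, whose latent form alphav receptors can activate, fell at -2.16 (SE 0.13, adjusted p = 2.38e-10). After GDF15, Ccn4 rose by 1.37 (SE 0.10, adjusted p = 3.22e-08), Thbs1 by 0.96 (SE 0.085, adjusted p = 2.87e-07) and Ccn1, an alphav and alpha6 ligand, by 0.86 (SE 0.10, adjusted p = 1.13e-05). Ccn2 rose after GDF15 by 0.32 (SE 0.085, adjusted p = 0.0132), opposite to its fall after CCN2, and Ccn5 was at -0.08 (adjusted p = 0.581). Thbs2 fell after GDF15 too, at -0.67 (adjusted p = 3.75e-05). Tgfb3 was at -0.41 (adjusted p = 0.0312) there, a call that ended without the detection filter (adjusted p = 0.0891) or without some single arrays. Ccn1 fell after CCN2 at -0.37 (adjusted p = 0.00642). Thbs1 rose after CCN2 too, by 1.62 (SE 0.085, adjusted p = 4.19e-11). The others that rose after CCN2, named after their values were seen, were Tnc at 1.28, Ltbp1 at 0.98 and Lamb1 at 0.94. Vtn, the gene of vitronectin, the ligand of alphav-beta5, fell after GDF15 at -0.95 (SE 0.10, adjusted p = 2.31e-06), and was at least 1.81-fold lower after CCN2, where no array detected it.

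Of 8 tested ligands of leukocyte integrins, 4 rose and 3 fell after CCN2, and 2 rose and 1 fell after GDF15, where 25.7% and 30.2% of all genes rose and fell after CCN2 and 9.76% and 12.7% after GDF15. Icam1, a ligand of the alphaL and alphaM receptors, rose after CCN2 by 1.11 (SE 0.091, limma adjusted p = 1.75e-08) and was at 0.13 (SE 0.091, adjusted p = 0.368) after GDF15. Icam2, another ligand of alphaL-beta2, fell after CCN2 at -1.24 (SE 0.095, adjusted p = 6.63e-09) and was at -0.17 (SE 0.095, adjusted p = 0.234) after GDF15. Jam2, a junctional adhesion molecule, rose after CCN2 by 0.95 (SE 0.14, adjusted p = 2.18e-05). Vcam1, a ligand of alpha4 receptors, rose in both, by 0.80 (SE 0.089, adjusted p = 6.96e-07) after CCN2 and 0.42 (SE 0.089, adjusted p = 0.00235) after GDF15. Madcam1, the ligand of alpha4-beta7, was detected on 4 of 4 GDF15, 3 of 4 CCN2 and 0 of 4 control arrays, and was at least 1.64-fold higher with GDF15 (adjusted p = 2.26e-05) and at least 1.20-fold higher with CCN2 (adjusted p = 0.00285) than in control. Madcam1 was tested only through the treated arrays, so its place among the rises counted above carries little weight. Thy1, a surface protein that beta3 and alphaM receptors bind, fell in both, at -1.55 (SE 0.098, adjusted p = 6.01e-10) and -0.62 (SE 0.098, adjusted p = 0.000176).

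Inside the cell, 32 activators and adhesion adaptors were tested. After CCN2, 3 rose and 11 fell, with a median of -0.17, or 1 and 17 with median scaling. After GDF15, 3 rose and 2 fell. With median scaling, the median of all tested probes was itself -0.17 after CCN2, and 26.7% of all called probes were higher. With quantile normalization, the shares over all genes were 25.7% higher and 30.2% lower after CCN2 and 9.76% and 12.7% after GDF15. By the counts with that normalization, fewer adaptors rose than that share after CCN2 and about that share fell. Among those that fell after CCN2 were the tensin gene Tns1 at -1.93 (SE 0.16, limma adjusted p = 1.65e-08), the PINCH family gene Lims2 at -1.76 (SE 0.11, adjusted p = 3.03e-10), vinculin, Vcl, at -1.74 (SE 0.11, adjusted p = 4.99e-10) and Tns3 at -1.07 (SE 0.094, adjusted p = 3.92e-08). After GDF15, talin 2, Tln2, rose by 0.66 (SE 0.12, adjusted p = 0.000658) and the docking protein Bcar1 by 0.46 (SE 0.085, adjusted p = 0.000813). Tln2 was also higher after CCN2, by 0.33 (adjusted p = 0.0295), and Tns3 lower after GDF15, at -0.33 (adjusted p = 0.0185). Both calls ended with median scaling (adjusted p = 0.808 and 0.0763) and without some single arrays. Fermt3, the kindlin of blood cells that activates beta2 integrins, was at -0.39 (SE 0.11, adjusted p = 0.0214) after GDF15, a call that ended without GDF15 array 10 or 12 or control array 1 or 4 (adjusted p between 0.0548 and 0.0732) or without the detection filter (adjusted p = 0.0507). After CCN2 it fell at -0.63 (SE 0.11, adjusted p = 0.000154).

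Of 24 other CCN2 receptors and integrin partners, 12 rose and 6 fell after CCN2, and 9 rose and 2 fell after GDF15. With median scaling the counts were 10 and 8 after CCN2 and 6 and 1 after GDF15. Over all genes, with quantile normalization only, 25.7% rose and 30.2% fell after CCN2, and 9.76% rose and 12.7% fell after GDF15. The proteoglycan co-receptor Sdc4, which works with alpha5-beta1 on fibronectin, rose by 1.09 (SE 0.089, limma adjusted p = 1.62e-08) after CCN2 and 0.83 (SE 0.089, adjusted p = 3.13e-06) after GDF15. The hyaluronan receptor Cd44 rose by 1.66 (SE 0.18, adjusted p = 4.95e-07) and 0.91 (SE 0.18, adjusted p = 0.00125), and the syndecan Sdc1 by 1.84 (SE 0.10, adjusted p = 1.2e-10) after CCN2. After GDF15, Sdc1 rose by 0.39 (adjusted p = 0.0125), a call that ended with median scaling (adjusted p = 0.0714). Fgfr2, a CCN2-binding receptor, fell after CCN2 at -2.10 (SE 0.096, adjusted p = 6.82e-12), as did the syndecan Sdc2 at -1.30 (SE 0.09, adjusted p = 1.76e-09). Tnfrsf11b, the gene of osteoprotegerin, a CCN2-binding decoy receptor, rose by 0.63 (SE 0.088, adjusted p = 1.2e-05) after CCN2 and 1.15 (SE 0.088, adjusted p = 5.36e-08) after GDF15. The urokinase receptor Plaur, which associates with integrins, rose by 1.29 (SE 0.10, adjusted p = 1.21e-08) after CCN2 and 0.82 (SE 0.10, adjusted p = 1.66e-05) after GDF15.

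**Figure D4:**
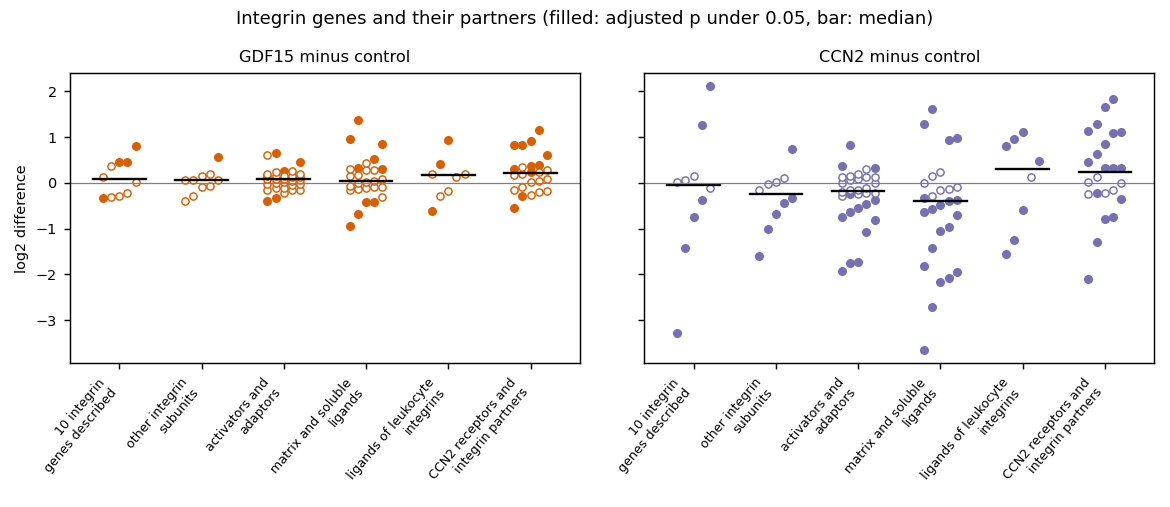
Log2 difference from control after GDF15 and after CCN2 for the 10 integrin genes and 5 lists of related genes, 1 point a gene and a bar at the median of each list. Filled points had an adjusted p under 0.05. The matrix and soluble ligands have the lowest median after CCN2, at -0.40, and the medians after GDF15 lie between 0.042 and 0.22.

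The genes whose 12 levels ran closest to those of Itgav and Itga11 were sought outside all lists, by the root mean square distance of levels centred on each gene's mean. For Itgav they were Cox4i2 (0.13 log2 units), Tbx3 (0.14) and Vnn3 (0.15). For Itga11 they were Vegfd (0.15), Ildr2 (0.15) and G0s2 (0.17). With 3 groups of 4 arrays, this likeness mainly describes the size of the CCN2 difference, which was 2.27, 1.92 and 2.25 for the first 3 genes and -3.46, -3.22 and -3.28 for the others.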

How the data were processed

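Total RNA was measured on 12 Illumina bead arrays, 4 a group. The authors deposited an intensity and a detection p-value per probe and array, without scaling between arrays, and the submitters' processing notes name GenomeStudio 2010.1. A second deposited table of processed intensities was used as an alternative only.

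Intensities were background-corrected and quantile-normalized with neqc (limma 3.58.1, R 4.3.3, offset 16), which shrinks changes of dim probes. A probe was tested if at least 4 of the 12 arrays had it at a detection p-value under 0.05. A group-means model was fitted with lmFit and eBayes (9 residual degrees of freedom, two-sided, Benjamini-Hochberg over all tested probes). Depth does not apply to arrays, and their number limits the precision.

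All 20 integrin probes matched RefSeq gene IDs. Outside the 10 genes, a gene was read from its tested probe with the highest mean. Up to 8 other integrin subunits past the threshold and up to 4 genes a list and treatment qualified for naming, those with the largest changes, and the 3 nearest genes by profile were named. Further lists of lymphocyte, endothelial, mural, cardiomyocyte, Schwann and platelet markers served to characterise the cultures. The genes and lists were chosen with earlier results of these data known, so lists carry no test. The arrays' values name no genome build, so only the RefSeq promoter positions carry coordinates.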

Additional observations from a re-analysis of the deposited data

Results flagged for a closer look

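Among 48 groups of 4 arrays (16 probes in 3 groups), 1 held an array far from its fellows, where chance gives about 5% of groups. For the Itga11 probe ILMN_2701778, CCN2 array 5 read 7.90 against 7.59 to 7.61 on the other CCN2 arrays. It still lay below every GDF15 and control array.

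The GDF15 and CCN2 effects against control had opposite signs, with at least 1 of them past the threshold, for 2 probes. The direct limma difference, GDF15 minus CCN2, was 1.21 (SE 0.14, adjusted p = 1.39e-06) for Itgb2, where both effects passed. For the Itga11 probe ILMN_2603054 the fitted difference was 1.26 (adjusted p = 4.57e-08), which is no measured size because no CCN2 array detected it. The data give a bound, at least 1.89-fold higher with GDF15 than with CCN2. Its GDF15 effect against control, 0.10, did not pass, so opposite effects are not shown for this probe. Both treatments were set against the same control arrays.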

How the results depend on the processing

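Each comparison was refitted under 20 alternatives: median scaling, the authors' processed values, no background correction, an offset of 50, no or a stricter detection filter, only the 8 arrays compared, array weights, and leaving out each array. No chip was named, so a chip block was not run. No paired analysis was possible because the titles number the arrays through all groups. After CCN2, Itgav (ILMN_1238119), Itga5, Itga11, Itgb5, Itgb2 and Itga8 kept direction and call in all alternatives run. After GDF15, Itgam did too. The Itga8 call was the narrowest, with an adjusted p of up to 0.0498 in these refits. An exact permutation test of the CCN2 and control arrays gave p = 0.0857 for Itga8, against 0.0286 for Itgb5. Sizes of dim probes fell by over 1.5 times with the authors' values, without background correction or with an offset of 50, to 0.42 to 0.44 for Itgam after GDF15 and -0.17 for Itga8 after CCN2. The integrin probes that rose after GDF15 numbered 4, but 1 with median scaling and 2 to 5 without single arrays. Those that fell numbered 1, but 2 with median scaling and 0 to 2 without single arrays. The 2 that rose stood without control array 1, the 0 that fell without GDF15 array 10, GDF15 array 12 or control array 1, and the 2 that fell without CCN2 array 8. The cause was not tested. Dim probes limit what can be seen for Itgb3, Itga7 and Itga8.

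Signs turned where the difference was near 0 and did not pass. With median scaling, the CCN2 differences were -0.25 for Itgb1 (ILMN_2609304), -0.11 for Itgam and -0.13 for Bcar1. For Itgb3 after GDF15 they were -0.041 with array weights, -0.0029 with the authors' values and -0.0028 without background correction. Without single arrays, the CCN2 differences ran from -0.02 to 0.14 for Itgam, -0.069 to 0.11 for Itgb1 (ILMN_2609304) and -0.25 to 0.029 for Itga7, and the GDF15 differences from -0.1 to 0.11 for Itgb3, -0.0021 to 0.14 for Itgal, -0.032 to 0.093 for Tcf21, -0.12 to 0.018 for Actc1 and -0.0019 to 0.19 for Ncam1. The Itgb3 difference between GDF15 and CCN2 ran from -0.28 to 0.0064. Of all refits of integrin probes, 28 ended a call and 16 made one, and 881 changed neither sign nor call.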

Other observations

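Markers of further cell types also differed between the groups, and their part in the integrin changes was not tested. Over all genes, with quantile normalization, 25.7% rose and 30.2% fell after CCN2, and 9.76% rose and 12.7% fell after GDF15. Of 8 tested endothelial markers, 1 fell after GDF15 and 7 after CCN2, with summed levels of 3140 to 3720 with GDF15, 2130 to 2290 with CCN2 and 3580 to 3790 in control. Of 10 pericyte and smooth muscle markers, 1 rose and 5 fell after GDF15 and 9 fell after CCN2, with sums of 1430 to 1650 with GDF15, 758 to 825 with CCN2 and 1790 to 1920 in control. The 5 platelet and megakaryocyte markers summed to 3770 to 6650 with GDF15, 6070 to 7230 with CCN2 and 2460 to 3170 in control, and 2 rose after GDF15 and 3 after CCN2. With median scaling, 2 of the 5 rose and 1 fell after CCN2. The call of Gp1bb, named after its values were seen, ended there (adjusted p = 0.302), without the detection filter (adjusted p = 0.0929), and without CCN2 array 5 or 7 or control array 1 or 4 (adjusted p between 0.0546 and 0.118). Of 3 cardiomyocyte markers, none passed the test after GDF15 and 3 fell after CCN2. With median scaling, 2 of the 3 fell after GDF15. Nppa, named after its values were seen, also passed there with the authors' values or without background correction (adjusted p = 0.0286 in both), with an offset of 50 (adjusted p = 0.0338) and without control array 1 (adjusted p = 0.0192). Of 2 lymphocyte markers, 1 fell after each treatment, with sums of 41.1 to 54.2 with GDF15, 37.9 to 40.9 with CCN2 and 48.3 to 61.1 in control. Neither was detected on any CCN2 array, so the CCN2 sum is no measured level. The marker that fell, Cd79b, was detected on 1 of 4 GDF15 and 4 of 4 control arrays. It was at least 1.21-fold lower with CCN2 than in control. Cd3d and Cd8a were detected on no array. Of 2 Schwann and neural markers, neither passed the test after GDF15 (1 fell with median scaling), and 1 rose and 1 fell after CCN2, while Sox10 and S100b were detected on no array.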
